A study of Mus musculus with 2 samples.

Results

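The NuRD and CtBP corepressors that FOG proteins bring to GATA factors were followed through 10 genes, Chd4, Mta1, Mta2, Mta3, Hdac1, Hdac2, Rbbp4, Rbbp7, Ctbp1 and Ctbp2. The genes were taken by name: every probe set to which the platform annotation gives 1 gene symbol, equal to one of the 10, was used. This gave 22 probe sets for 10 of the 18193 genes on the array, and no probe set with several symbols held a member. Transcript levels came from oligonucleotide arrays of gonad-mesonephros complexes, the embryonic gonad with the mesonephros attached, from XX mouse embryos at E12.5, mid-gestation. One array carried RNA of wild-type complexes, with no strain given, and the other RNA of Gata4ki/ki complexes on C57Bl/6, homozygous in every cell for a knock-in allele whose GATA4 protein binds FOG poorly. Each array held RNA pooled from 6 pairs of complexes, so the comparison rests on 1 value per group and has no replicate check. No p-value or standard deviation between embryos can be given, and every difference below describes these 2 arrays.

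NuRD is a nuclear complex that joins an ATP-driven nucleosome remodeller to histone deacetylases, and it represses or tunes transcription at the sites to which DNA-bound factors bring it. FOG1 and FOG2, encoded by Zfpm1 and Zfpm2, bind the amino-terminal zinc finger of GATA factors. They contact NuRD through a short motif at their own amino terminus and CtBP through a separate motif. GATA4 with FOG2 is required in the somatic cells of the early gonad, and the comparison asks what is lost when that contact is weakened. The transcript levels of the corepressors say how much message for the partners was present, and nothing of their recruitment.

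The deposited values are MAS5 signals, brightness in arbitrary units on a linear scale. Low signals were lifted to a floor, the 50th percentile over both arrays (24.04), before log2 was taken. A probe set was measured where at least 1 array exceeded the floor. Of the 22 probe sets, 18 were above the floor on both arrays, 1 on 1 array and 3 on neither. All 10 genes were measured by their brightest probe set. The spread between the arrays narrowed with brightness. The robust SD of the log2 ratio (mutant minus wild type), taken from the interquartile range, was 0.38 for all measured probe sets whose mean signal was under 100. It was 0.22 for those from 100 to 400 and 0.12 for those above 400. Of the measured corepressor probe sets, 12 lay above 400, 3 from 100 to 400 and 4 under 100. Signals of different probe sets depend on their probes and were not compared with each other; the sums of marker signals given further on are led by their brightest probe sets and are read only between the arrays.

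Transcripts of 9 of the 10 corepressor genes were at most 1.13-fold apart between the arrays on their brightest probe set, and Mta1 was 2.01-fold lower in the mutant. At 2-fold, 1 of 10 members was lower and none higher, where 0.537% of the 12300 measured genes were 2-fold lower and 0.846% 2-fold higher. At 1.5-fold the members gave the same counts, 1 lower and 0 higher, beside 3.11% of measured genes lower and 3.54% higher. The 10 genes had a median log2 ratio of -0.03, and the median over all measured genes was 0.01. Within 0.1 of 0 on the log2 scale lay 8 of the 10 members, or 80.0%, beside 38.0% of all measured genes. Bright probe sets differ less between arrays: above a mean signal of 400, 10 of 12 corepressor probe sets and 57.5% of all probe sets lay within 0.1. Over all 19 measured corepressor probe sets the median was -0.02, with 7 ratios above 0 and 12 below.

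**Figure D1:**
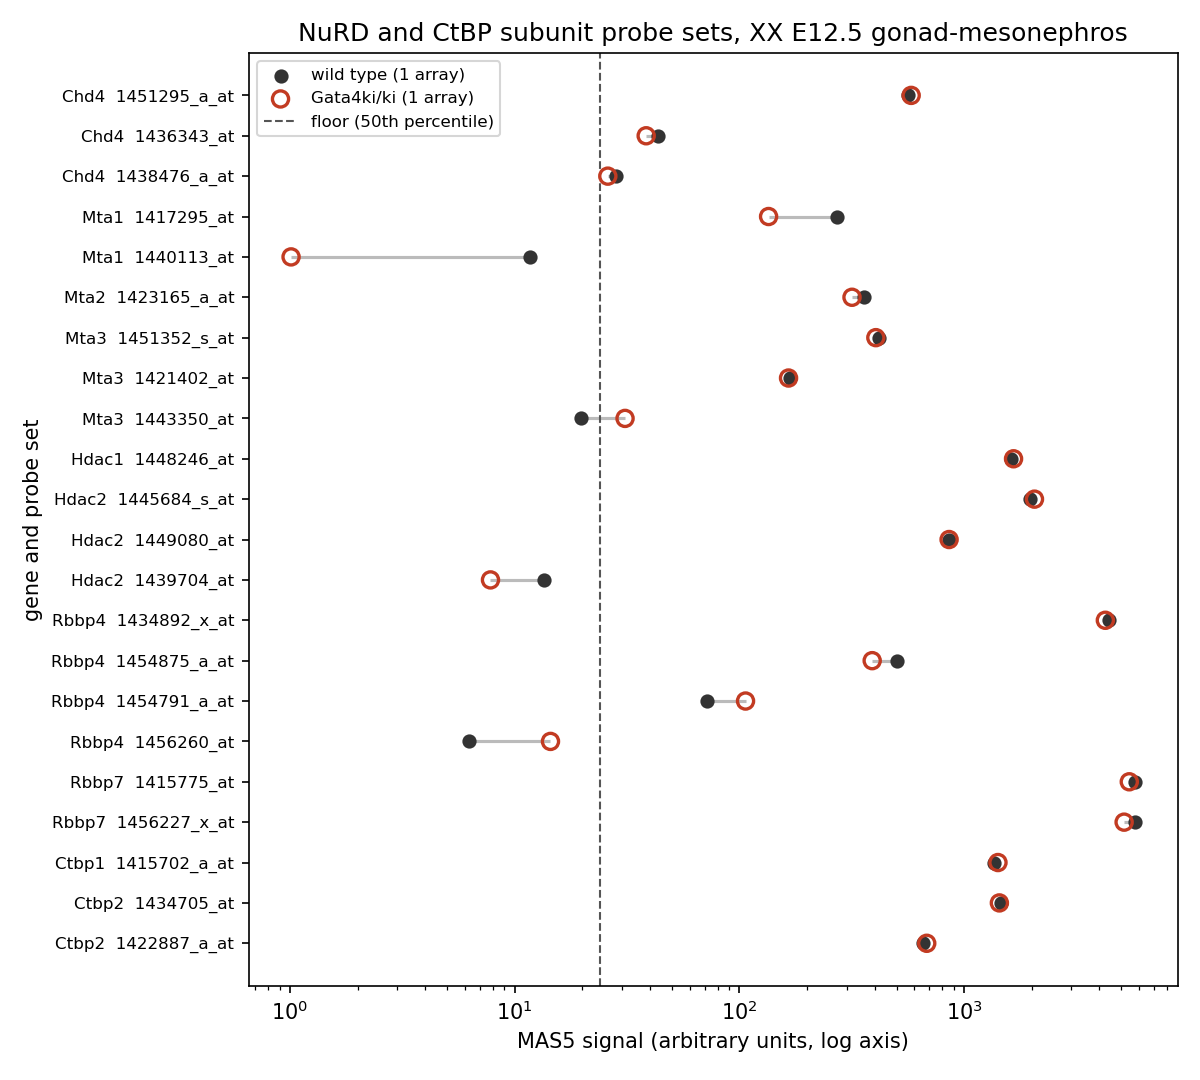
MAS5 signal (log axis) of each of the 22 corepressor probe sets on the wild-type array (filled) and the Gata4ki/ki array (open), with the floor dashed. The 2 values nearly coincide for Chd4, Hdac1, Hdac2, Ctbp1 and Ctbp2 on their brightest probe sets, while Mta1 drops from 271.5 to 134.8; the widest gap on the plot, for the second Mta1 probe set, lies wholly under the floor.

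The metastasis-associated proteins, encoded by the Mta genes, are the scaffolds on which the histone deacetylases of NuRD assemble, and a NuRD particle holds MTA1, MTA2 or MTA3. On probe set 1417295_at, Mta1 gave 271.5 in wild type and 134.8 in the mutant. The mutant array was thus the lower, by 1.01 on the log2 scale, which lies just past the 2-fold limit. Adding a constant of 24 to both signals in place of the floor gave -0.90, under 2-fold. Of the 8072 probe sets with a mean signal of 100 to 400, 25 were at least 2-fold lower, or 0.31%, and 0.719% were at least as far apart as Mta1 in either direction. The other Mta1 probe set, 1440113_at, gave 11.6 and 1.01, both under the floor, and carries no ratio. The value for Mta1 therefore rests on 1 probe set.

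The other scaffold genes were close between the arrays. Mta2 gave 358.0 in wild type and 316.8 in the mutant, a log2 ratio of -0.18, and 42.9% of probe sets of like brightness were at least as far apart. Mta3 gave 417.7 and 404.5 on its brightest probe set, 1451352_s_at, a ratio of -0.05. The suffix in that name marks probes that can match several transcripts. The second Mta3 probe set, with 167.6 and 165.4, had a ratio of -0.02. Another, dim Mta3 probe set gave 19.7 and 31.0, so that its mutant signal was at least 1.29-fold higher, the wild-type value lying under the floor. The brightest probe sets of the 3 Mta genes all had ratios below 0, but those of Mta2 and Mta3 were smaller than the robust SD at their brightness.

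**Figure D2:**
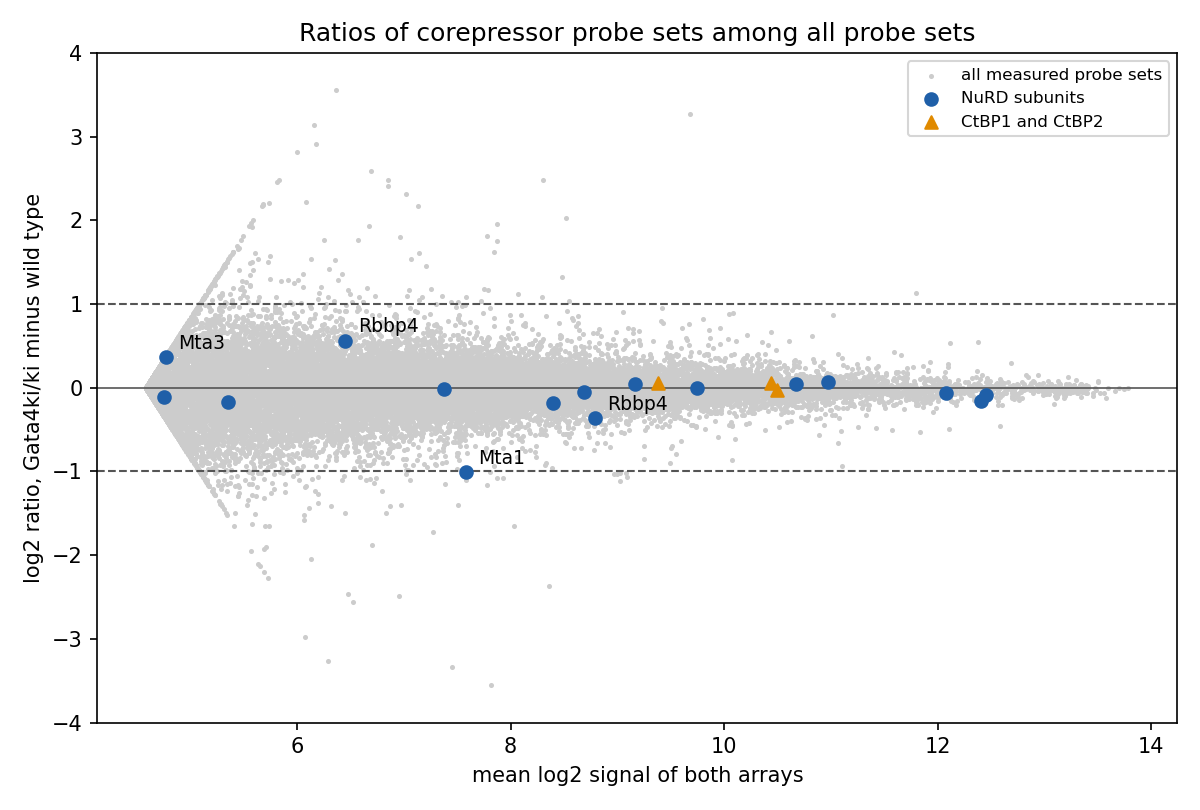
Log2 ratio (Gata4ki/ki minus wild type) against the mean log2 signal of both arrays, for all measured probe sets (grey), NuRD subunits (circles) and CtBP1 and CtBP2 (triangles), with 2-fold limits dashed. Mta1, at -1.01, sits on the lower edge of the cloud at its brightness; the Rbbp4 probe sets fall on both sides of 0, and the bright probe sets lie near 0.

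Promoter sequences of Mta1, Mta2 and Chd4 are shown because GATA factors read the letters GATA, and because Mta1 alone among the members was past 2-fold. They are the stretch before the annotated gene start, from RefSeq on GRCm38.p6, all on the plus strand, and capitals mark 3 motifs searched on both strands. These are GATA, which reads TATC when it lies on the minus strand; the longer GATA motif AGATAA, which overlaps it and reads TTATCT there; and the GC box, whose letters are GGGCGG on one strand or CCGCCC on the other. The Mta1 stretch is chr12:113098028-113098247, that of Mta2 is chr19:8941670-8941919 and that of Chd4 is chr6:125095731-125095979.
Mta1: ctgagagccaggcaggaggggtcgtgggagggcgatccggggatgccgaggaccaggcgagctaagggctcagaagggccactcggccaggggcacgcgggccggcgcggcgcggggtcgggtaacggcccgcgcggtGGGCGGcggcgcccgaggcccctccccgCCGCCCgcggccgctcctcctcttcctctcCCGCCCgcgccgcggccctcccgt
Mta2: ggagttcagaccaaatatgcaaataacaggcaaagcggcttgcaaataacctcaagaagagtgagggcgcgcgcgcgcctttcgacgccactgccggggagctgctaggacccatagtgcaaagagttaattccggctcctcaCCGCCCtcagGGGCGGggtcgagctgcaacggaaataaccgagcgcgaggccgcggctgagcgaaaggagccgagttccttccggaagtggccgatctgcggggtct
Chd4: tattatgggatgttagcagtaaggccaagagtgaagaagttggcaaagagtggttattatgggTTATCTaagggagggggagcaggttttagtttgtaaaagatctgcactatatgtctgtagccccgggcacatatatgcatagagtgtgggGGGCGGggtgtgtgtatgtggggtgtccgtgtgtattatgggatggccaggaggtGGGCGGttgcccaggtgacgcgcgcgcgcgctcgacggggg
The Mta1 stretch holds 3 GC boxes and no GATA letters, the Mta2 stretch 2 and none, and the Chd4 stretch 2 GC boxes and 1 AGATAA on the minus strand. Of the members, 8 had a promoter in the reference, with 10 windows of 300 bases (250 before the start and 50 after). Mta3 and Hdac1 had none. The letters GATA were in 2 of the 10 windows, one of Chd4 and that of Hdac2, and in 57.9% of all 32851 windows of the reference. AGATAA was in 1 of 10 member windows and 11.2% of all. The GC box was in 8 of 10 member windows and 35.7% of all. GC content was 81.0% for the Mta1 window, with a median of 52.7% over all windows. Both Ctbp2 windows lay under that median, at 52.0% and 43.7%, and all other member windows lay above it. Motif shares were not compared among windows of like GC content. A match is a run of letters and not a binding site.

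CHD4 is the remodelling motor of NuRD, and its transcript had almost the same signal on both arrays. The brightest Chd4 probe set gave 564.1 in wild type and 580.9 in the mutant, a log2 ratio of 0.04. Its dim probe sets gave 43.4 and 38.4, a ratio of -0.17, and 28.1 and 25.95, a ratio of -0.11. These dim values lie near the floor, where a ratio of that size was exceeded by 63.6% and 74.5% of probe sets of like brightness.

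HDAC1 and HDAC2 are the class I deacetylases that remove acetyl groups from histone tails, in NuRD and in other repressor complexes. Hdac1, with a single probe set, gave 1614 in wild type and 1659 in the mutant, a ratio of 0.04. Hdac2 gave 1954 and 2055 on its brightest probe set, 1445684_s_at, a ratio of 0.07. The suffix in that name marks probes that can match several transcripts. On its second probe set Hdac2 gave 857.7 and 856.8, the closest pair among the measured corepressor probe sets. Its dimmest probe set was under the floor on both arrays, with 13.5 and 7.80. The bright deacetylase probe sets were thus at most 1.05-fold apart.

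RBBP4 and RBBP7 are the WD-repeat histone chaperones of NuRD, shared with Polycomb, SIN3 and chromatin assembly complexes. Rbbp7 gave 5774 in wild type and 5430 in the mutant, a ratio of -0.09. Its second probe set, with 5734 and 5150, had a ratio of -0.15 and a name suffix by which the platform marks probes that can match other sequences. Both Rbbp7 ratios were below 0, and 24.9% of all probe sets above 400 were at least as far apart as the larger. That range also holds much dimmer probe sets than those of Rbbp7.

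The probe sets of Rbbp4 did not point one way. The brightest, with the same suffix for possible cross-matches, gave 4426 in wild type and 4248 in the mutant, a ratio of -0.06. A second gave 500.9 and 389.6, a ratio of -0.36, and 3.89% of probe sets above 400 were at least as far apart. The next gave 71.9 and 106.4, a ratio of 0.56, where 16.3% of probe sets under 100 were at least as far apart. The dimmest was under the floor on both arrays, with 6.26 and 14.4. Within Rbbp4 the ratios spanned 0.93 on the log2 scale, the widest range of any member with several probe sets above the floor. These probe sets read the same RNA, so no single ratio describes Rbbp4.

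CTBP1 and CTBP2 are dehydrogenase-like corepressors that bind short motifs in FOG and many other repressors, and their transcripts were near level on the arrays. Ctbp1 gave 1363 in wild type and 1414 in the mutant, a ratio of 0.05, on its only probe set. Ctbp2 gave 1457 and 1434, a ratio of -0.02, on its brighter probe set. On the dimmer one Ctbp2 gave 655.0 and 681.4, a ratio of 0.06. All 3 ratios were under 0.12, the robust SD of all measured probe sets above 400.

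The rest of NuRD was read from a list of 8 further subunits, all measured. They had a median log2 ratio of 0.03, beside 0.01 over all measured genes, with 4 above 0 and 4 below, and none was 2-fold apart at this floor. The sign of this median was not stable, ranging from -0.12 to 0.19 over the alternative settings. The remodeller Chd3, which can take the place of CHD4, gave 400.4 and 527.8, a ratio of 0.40. Chd5, another alternative motor, was at least 1.51-fold higher, with 13.8 in wild type, under the floor, and 36.4 in the mutant; with the floor at the 40th percentile its ratio was 1.40. The methyl-CpG-domain proteins MBD2 and MBD3 define alternative NuRD complexes. Mbd3 gave 379.0 and 319.0, a ratio of -0.25, and Mbd2 gave 383.4 and 436.7, a ratio of 0.19. Gatad2a, a subunit that links the MBD protein to CHD4, had ratios from -0.31 to 0.25 over its 5 measured probe sets. Gatad2b had ratios from 0.20, on its brightest, to 0.85 over its 3 measured probe sets.

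On the recruiting side, Zfpm1 and Zfpm2 were higher in the mutant while most of their corepressor partners were level. Zfpm1 gave 98.6 and 203.3, 2.06-fold higher, and Zfpm2 530.2 and 784.0, a ratio of 0.56, with 0.97 on its second probe set; Gata4 had ratios of 0.25 and -0.51 on its 2 probe sets. With the added constant the Zfpm1 ratio was 0.89, under 2-fold. The other Zfpm1 probe set gave 10.5 and 11.7, both under the floor, so the Zfpm1 value rests on 1 probe set. On their brightest probe sets 7 of the 8 FOG and GATA genes had a ratio above 0, beside 6320 of the 12300 measured genes. Gata3 was lowest at -0.08 and Gata5 next, with 39.7 on both arrays. The list median was 0.22 and ranged from 0.11 to 0.33 over the alternative settings. By the median of its probe sets Gata4 had a ratio of -0.13. Among 9 zinc finger proteins that bind NuRD through an amino-terminal motif of the same type, which include Zfpm1 and Zfpm2, 8 were measured and 7 had a ratio above 0, with a median of 0.31. Sall1 gave 75.1 and 93.8, Bcl11a 111.7 and 158.6 and Bcl11b 122.8 and 130.7. Sall4, a factor of germ cells and early embryos, gave 259.7 and 250.1, a ratio of -0.05, and Sall3 was under the floor on both arrays. Only Zfpm1 of this list was 2-fold apart at this floor.

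Enzymes and scaffolds that work with CtBP were near level on their brightest probe sets. All 12 listed genes were measured, 8 with a ratio above 0 and 4 below, and the median was 0.08. None was 1.5-fold apart on its brightest probe set, but other probe sets of Ehmt2, Rreb1 and Phf21a were. Ratios ran from -0.73 to -0.01 over 2 probe sets of Ehmt2 and from -0.60 to 0.21 over 3 of Rreb1. Wiz, a zinc finger partner of the histone methyltransferases EHMT1 and EHMT2, gave 104.8 and 133.8, a ratio of 0.35. Rcor2, a CoREST scaffold, gave 67.7 and 54.5, a ratio of -0.31. Phf21a had ratios from -0.34 to 0.60 over 4 probe sets, 0.29 on the brightest. Hmg20b gave 107.5 and 101.9, a ratio of -0.08.

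DNA-binding factors and adaptors that recruit CtBP had a median of 0.02 over 14 measured genes, 8 with a ratio above 0 and 6 below, and the median ranged from -0.01 to 0.07 over the alternative settings. On other probe sets some genes went further. Ratios ran from -0.89 to 0.38 over 5 probe sets of Nrip1 and from -0.81 to 0.13 over 4 of Zeb2. Over 3 probe sets of Hic2 they ran from -0.71 to -0.07. Ikzf1, a lymphoid and myeloid zinc finger factor, was the only one past 1.5-fold on its brightest probe set. Its signal was 22.9 in wild type, under the floor, and 58.1 in the mutant, at least 2.42-fold higher. With the floor at the 60th percentile the bound for Ikzf1 was 0.26, and with the added constant its ratio was 0.81. Sox6, a factor of erythroid and cartilage cells, gave 111.3 and 157.3, a ratio of 0.50. Prdm16 and Mecom, related zinc finger proteins, had ratios of -0.26 and -0.22.

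Other complexes that share HDAC1, HDAC2, RBBP4 or RBBP7 showed no gene 1.5-fold apart at this floor; with the floor at the 40th percentile Lin52, not measured otherwise, was at least 1.5-fold lower. Of the SIN3 complex 11 genes were measured, with a median of 0.02 that ranged from -0.05 to 0.03. Arid4b had a ratio of 0.37 and Brms1 of 0.18, and Sap30l and Ing1 had -0.19 and -0.10. Of Polycomb repressive complex, chromatin assembly and related genes 10 were measured, with a median of -0.03. Ezh2, the Polycomb histone methyltransferase, gave 1382 and 1126, a ratio of -0.30. Chaf1b had a ratio of -0.18, Bptf of 0.11 and Eed of 0.05.

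Further deacetylases and remodellers went both ways. The 9 other histone deacetylases had a median of -0.05, with 5 ratios below 0. Hdac8, a class I enzyme, gave 74.7 and 48.5 and was 1.54-fold lower, though with the added constant its ratio was -0.45, under 1.5-fold. Hdac7 had ratios from -0.66 to -0.11 over 2 probe sets, -0.11 on the brightest. Hdac3, the deacetylase of the NCoR and SMRT complexes, gave 429.7 and 326.2, a ratio of -0.40. Hdac11 and Hdac4 had ratios of 0.20 and 0.14. Of the NCoR and SMRT list 4 genes were measured, with a median of -0.21. Gps2 had a ratio of -0.45, while Tbl1x and Tbl1xr1 had ratios of -0.03 and 0.04. The 8 CHD remodellers other than CHD4, which include Chd3 and Chd5, had a median of 0.15. Chd1 gave 241.1 and 251.1 on its brightest probe set, a ratio of 0.06, but 94.8 and 30.1 on another, a ratio of -1.65, with its 4 probe sets spread between these values. Chd7 was at least 1.93-fold lower on its brightest probe set, with 46.3 and 18.6, but a dimmer one pointed the other way, with 24.2 and 35.3 and a ratio of 0.55. The brightest gave -1.31 with the floor at the 40th percentile, and the median of both probe sets was -0.20. Chd8 had a ratio of -0.17.

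**Figure D3:**
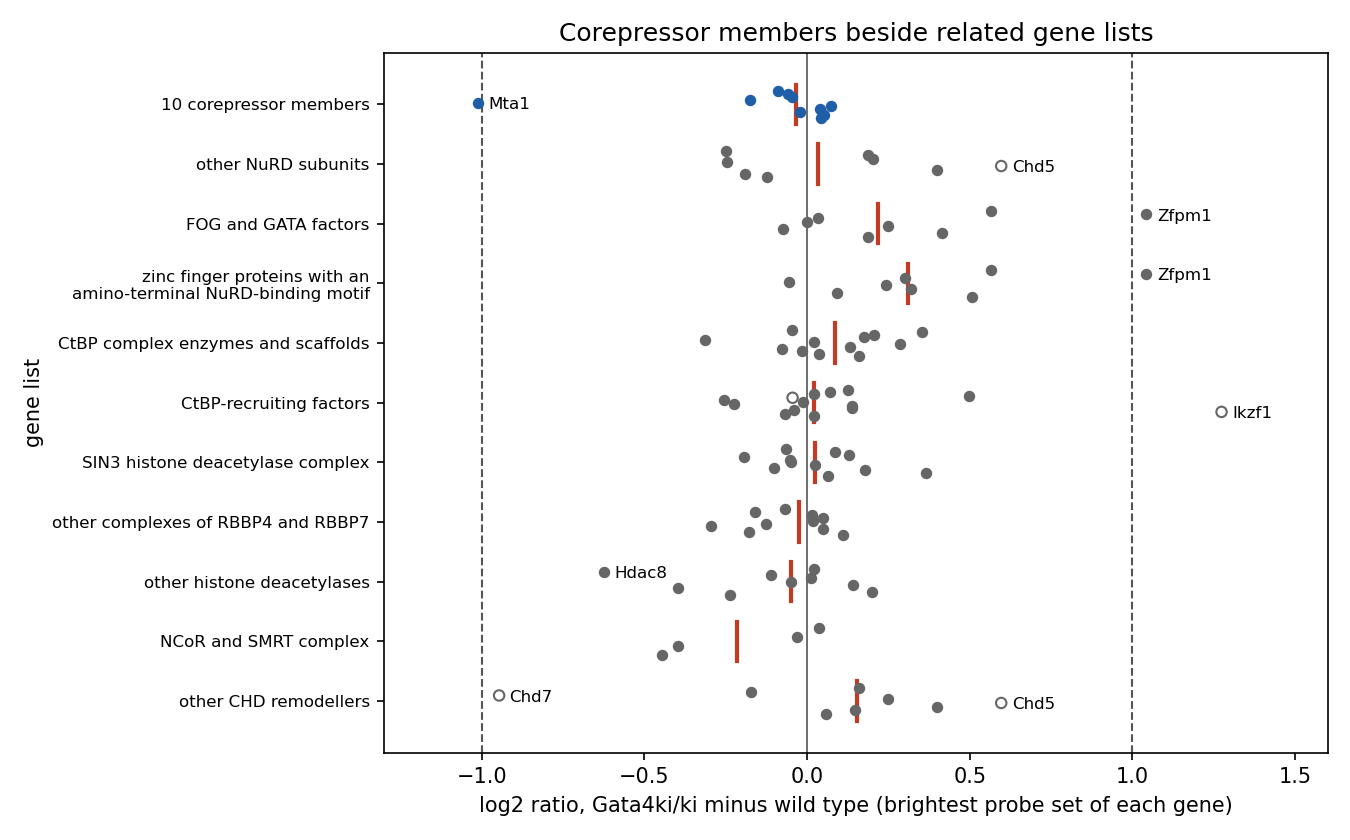
Log2 ratio (Gata4ki/ki minus wild type) of each gene's brightest probe set, for the 10 corepressor members and the related lists, with list medians as vertical lines, bounds as open circles and 2-fold limits dashed. Outside Mta1, only Zfpm1 and the bound of Ikzf1 pass 2-fold on the brightest probe set; genes that belong to several lists appear in each.

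The corepressor genes are expressed in many cell types, so the cell content of the arrays was read from marker lists, in which no marker was at 0. Markers of the gonadal somatic cells were present on both arrays: all 10 were measured, 4 with a ratio above 0 and 6 below. On their brightest probe sets Nr5a1, Rspo1, Gata4 and Wt1 had ratios of 0.34, 0.34, 0.25 and 0.01. The sums were 7654 (wild type) and 6064 (mutant), and 3 markers were 2-fold lower, Fst, Foxl2 and Irx3. Much of the fall in the sum came from Fst, with 769.5 and 65.6, and Irx3, with 787.2 and 376.9. All 9 measured germ cell markers lay within 2-fold, with sums of 3821 and 4377, or 1953 and 1900 without the brightest, Dppa5a. The sums of the other lists kept their direction without their brightest gene. Of 9 markers of mesonephric and Müllerian epithelium 7 were below 0, with sums of 3325 and 2877, and of 10 endothelial markers 8 were below 0, with sums of 2750 and 2362. Of 9 erythroid markers 4 were 2-fold higher (2 to 4 in the alternative settings), beside 0.846% of all measured genes. These 4, Klf1, Alas2, Slc4a1 and Hemgn, were dim in wild type, from 20.2 for Hemgn, under the floor, to 68.6 for Alas2. The erythroid sums, 16543 and 17924, are led by Hbb-y, Hba-x and Hbb-bh1, with ratios of -0.04, 0.29 and 0.18. Of 10 macrophage and leukocyte markers 8 were above 0, with sums of 1453 and 2155. Over all 12300 measured genes, 6320 ratios were above 0 and 5980 below. The 9 markers of proliferating cells had sums of 17167 and 16433 and a median ratio of -0.05. The part of these differences in the lower Mta1, the higher Ikzf1 or any other value was not tested. In such pooled tissue, fewer cells that carry a transcript and less of it per cell cannot be told apart.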

How the data were processed

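Total RNA of 6 pairs of complexes per group was hybridised to 1 array each, per the labels' protocols; the series' design text counts 6 control and 6 mutant samples. Per the submitters' processing notes the authors used MAS5, and the deposited table gives 1 linear signal intensity for each probe set. The MAS5 version, the detection calls and the filters were not given in the sources used here. A global scaling is visible: leaving out 2% of probe sets at each end, the mean was 150.0 on both arrays, and the medians were 24.10 and 23.98.

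The values were used as deposited. Genes were named from the platform annotation, and all 10 members had the same symbol in the RefSeq gene table (GRCm38.p6). The 64 control probe sets were left out. Each gene is given by its brightest probe set (mean log2 signal). With 1 array at or under the floor, a ratio is a bound, written "at least". Named genes were the members, Gata4, Zfpm1 and Zfpm2. In each related list, the genes 1.5-fold apart and the 2 highest and 2 lowest ratios were named too. Mbd2, Gatad2b, Sall1, Bcl11a, Sall3, Ehmt2, Rreb1, Nrip1, Zeb2, Hic2, Hdac7, Chd1 and Lin52 were added for context after their values were seen. The members, lists and settings were chosen with earlier results of these data known. Protein sequences were not analysed here. Python 3.11.15 with pandas 2.3.3 was used.

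A pair of arrays with 45101 probe sets was simulated for the mutant and wild-type comparison. The procedure found 50 of 50 probe sets set 1.5 lower on the log2 scale, and 50 of 50 set 1.5 higher, as 2-fold apart. Such shifts lie past the 2-fold limit, so a high recovery was likely by design. The shifts were set only in probe sets with a mean signal above 100, so the counts do not cover dimmer ones. Above 100 the counts were not split by brightness. They say nothing of false calls or of a ratio at the limit, such as -1.01 for Mta1. Precision is limited by the number of arrays and by signal over background.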

Additional observations from a re-analysis of the deposited data

How the results depend on the processing

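The floor was moved to the 40th or 60th percentile, dropped, or replaced by an added constant of 24. The arrays were scaled to their medians, quantile normalized or corrected by loess. Genes were also represented by the median of their probe sets, or without suffixed probe sets, which left 7 measured members. In 8 of these 9 settings 1 member, Mta1, was 2-fold lower. With the added constant 0 of 10 members were, at -0.90 for Mta1, which was the only one past 1.5-fold in every setting. The other floors, no floor, the median of probe sets and leaving out suffixed ones could not move Mta1 from -1.01. Its 1 measured probe set has no suffix and lies above each floor on both arrays. The count of settings is therefore no measure of how firm the Mta1 ratio is. No test exists with 1 array per group, so these counts have no p-value. The median over the corepressor probe sets ranged from -0.04 to -0.02. Of the 19 measured probe sets 18 kept their sign in every setting of floor and scaling that measured them; the exception was Hdac2 1449080_at, which ranged from -0.01 to 0.01. No paired analysis was possible because each group has 1 array. Leaving out a replicate was not possible for the same reason. Low signals limit the dim probe sets of Chd4, Mta1, Mta3, Hdac2 and Rbbp4. Over all measured genes, the counts at least 2-fold higher and lower were 104 and 66. They became 210 and 136 or 41 and 33 with the floor at the 40th or 60th percentile, 263 and 173 without a floor, and 61 and 40 with the added constant.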
